A study of Homo sapiens with 6 samples.

Results

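Secreted stress hormones are signalling proteins that cells release when the integrated stress response is switched on, and 6 of the 61806 genes in the deposited expression table were followed here: GDF15, STC1, STC2, INHBE, ADM2 and FGF21. They were chosen by name, as the entries whose gene symbol equals one of these symbols, and each symbol matched 1 entry. STC1, STC2, GDF15 and ADM2 were clearly counted in every sample. INHBE and FGF21 were near zero counts: INHBE had 11 counts in the 3 control samples together and 23 in the 3 PB samples, and FGF21 had 0 and 1. RNA-seq was performed on MDA-MB-231, a human cell line from triple-negative breast cancer with a mesenchymal character, and compared 3 samples of the control group with 3 samples treated with 20 μM Parishin B (PB) for 24 h. PB is a small molecule that the study screened as a candidate inhibitor of the pseudokinase TRIB3. From a thermal shift assay and co-immunoprecipitation the study reported that PB binds TRIB3 and blocks its interaction with AKT1. The comparison addressed what PB changes in the transcriptome. Both groups are the same cell line with no engineered allele named, and the solvent given to the control group of the RNA-seq samples is not named in the sources used here. Nothing says whether the samples came from separate cultures, so the spread between them may be technical. The main test below takes that spread largely from all genes together. Its p-values and intervals therefore do not measure the spread of a single gene between its samples.

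In the integrated stress response, kinases that sense amino acid shortage, misfolded protein in the endoplasmic reticulum or other insults slow general translation, while the transcription factor ATF4 is still translated and turns on genes for amino acid supply and repair. A few of the genes that ATF4 and its partner DDIT3 (CHOP) can turn on encode secreted proteins, so that a stressed cell also signals to its surroundings or to distant organs. GDF15 acts on the brainstem to lower food intake, FGF21 is a hormone of fasting metabolism, ADM2 (intermedin) is a vasodilator peptide, the stanniocalcins STC1 and STC2 are glycoproteins that hold back the pappalysin proteases, and INHBE encodes the beta E subunit of activins and inhibins.

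Total counts lay between 15681655 and 21986948 per sample, at which 3 counts, taken here as the detection floor, correspond to 0.136 to 0.191 CPM (counts in each 1000000 of the sample's total). This floor covers counting error only. Between samples of the same group the counts varied a little beyond sampling noise (chi-square per degree of freedom 1.45 to 1.92), against 71.1 to 85.1 between a control and a PB sample. The markers of a mesenchymal triple-negative line were abundant in every sample, with a summed level of 6105 to 6250 CPM in the control group and 5599 to 5626 CPM with PB. Of these 6 markers 0 had a positive log2 fold change with PB, and the median was -0.57. CAV1 (-1.16) alone was lower by the calling rule given below, as were 6.73% of all tested genes. The control libraries also held epithelial transcripts that were lower in, or absent from, the PB libraries. Of 8 epithelial markers 7 were lower with PB, their summed level was 254 to 260.1 CPM against 2.10 to 3.21 CPM, and AGR2 and CEACAM6 were at 0 in every PB sample. CDH1, the epithelial cadherin, had 428, 387 and 522 counts in the control samples and 2, 0 and 2 with PB. KRT7, the most counted of the 8, had 2840, 3084 and 3946 counts in the control samples and 31, 22 and 36 with PB. KRT19, the marker that was not called, had 6, 8 and 7 counts in the control samples and 8, 2 and 8 with PB. Beyond these markers, 113 genes reached 30 counts in each control library while staying at 3 or fewer in each PB library, and 1 gene had the opposite pattern. All 3 control libraries carried these transcripts, so no value without them can be given, and their part in the results below was not tested. Fibroblast markers were near the floor (3.31 to 3.41 CPM in the control group and 2.27 to 2.81 CPM with PB, summed over 5 genes), and so were leukocyte markers (1.29 to 1.91 and 0.441 to 0.510 CPM, summed over 4 genes). Markers of hormone receptor-positive breast cells were low in both groups, with 6.55 to 7.42 and 6.36 to 7.02 CPM summed over 4 genes.

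In hg38 coordinates from the deposited table, STC1 lies on chromosome 8 from 23841929 to 23854806 on the minus strand, and its principal GENCODE transcript has 4 exons. STC2 lies on chromosome 5 from 173314723 to 173328447 on the minus strand, also with 4 exons. GDF15 and FGF21 lie far apart on chromosome 19, at 18374731 to 18389176 and at 48755524 to 48758333, both on the plus strand. The principal transcript of GDF15 has 2 exons, and FGF21 has 2 principal transcripts, with 3 and 4 exons. INHBE lies on chromosome 12 from 57452323 to 57459280 and ADM2 on chromosome 22 from 50481543 to 50486440, both on the plus strand. INHBE has 2 exons in its principal transcript, and ADM2 has 2 principal transcripts, with 2 and 3 exons.

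The transcripts of ADM2, GDF15 and STC2 were higher with PB past both lines used to call differentially expressed genes (DEGs), STC1 was higher past the significance line alone, and INHBE and FGF21 were near the floor in both groups. DEGs had to pass edgeR's quasi-likelihood test with an adjusted p (Benjamini-Hochberg) no higher than 0.05, and to change by 1 or more on the log2 scale, up or down. By this rule 3 of the 6 hormones, out of 5 that passed the expression filter, were higher with PB and 0 were lower, where 5.36% of the 24200 tested genes were higher and 6.73% were lower (12.1% in either direction). DESeq2 also called 3 of the 6 higher, with 4.25% of tested genes higher by that tool. For 4 of the 6 hormones every PB sample lay above every control sample in FPKM (fragments for each 1000 bases of exon and 1000000 counts of the sample, a level that can be compared between genes), as was the case for 34.1% of all tested genes. FPKM is scaled by the total count alone, while the fitted changes also use TMM factors. By the total count alone the median log2 fold change over all tested genes was 0.138, beside 0.0106 in the fit. Differences in FPKM therefore lean slightly towards PB. In RNA from a whole culture, a change in the number of cells of a type and a change in RNA per cell cannot be told apart.

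**Figure D1:**
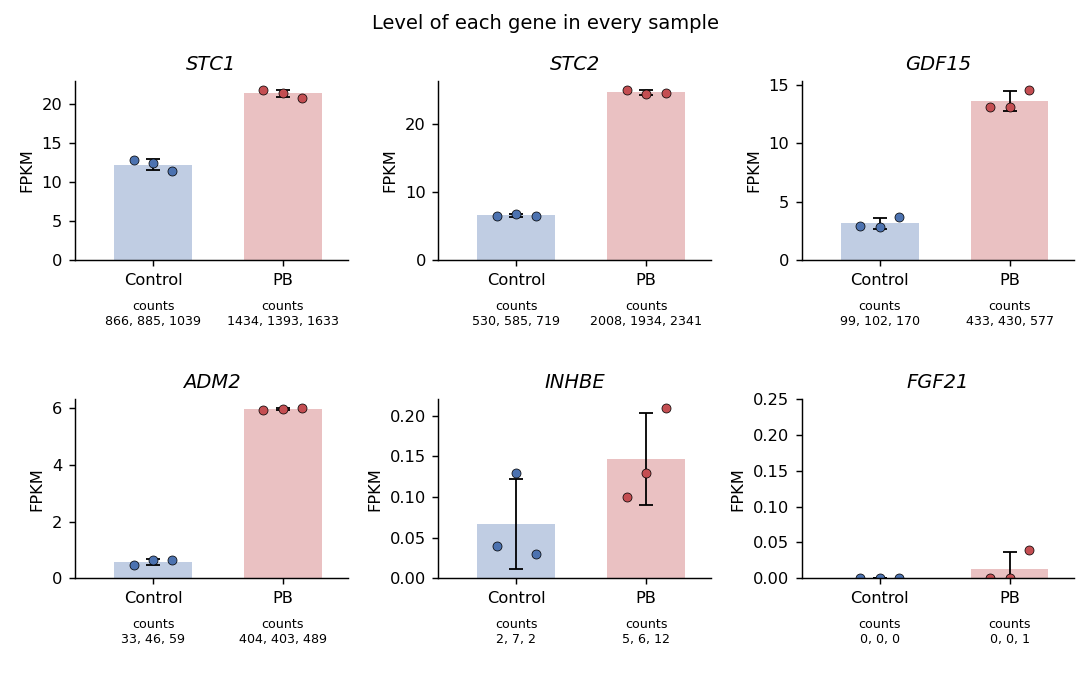
Level of the 6 genes in FPKM (y axis, linear, own scale in each panel) in the control group (blue) and with PB (red). Points are the 3 samples of a group, bars their mean and error bars the SD, and the raw counts of replicates 1, 2 and 3 stand under each bar. The groups do not overlap for STC1, STC2, GDF15 and ADM2, overlap for INHBE, and FGF21 has 1 count in 1 PB sample.

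ADM2, a peptide hormone of the calcitonin family that widens blood vessels, had the largest relative response. Its level was 0.47, 0.63 and 0.63 FPKM in control replicates 1, 2 and 3 and 5.93, 5.99 and 6.02 FPKM in PB replicates 1, 2 and 3. The PB samples lay within a narrow band, far above all control samples. The counts behind these values were 33, 46 and 59 in the control group and 404, 403 and 489 with PB. The mean level therefore rose from 0.577 ± 0.0924 to 5.98 ± 0.0458 FPKM (SD, n = 3). The fitted change was 9.38-fold (95% interval 8.03 to 10.96), a log2 fold change of 3.23 (SE 0.11) with an adjusted p of 1.245e-173 in edgeR's quasi-likelihood test. Only 0.607% of the tested genes had a larger log2 fold change, and of the 6 hormones ADM2 alone was past a log2 fold change of 2, which 1.07% of tested genes passed upwards. The gene span of ADM2 overlaps that of SBF1, on the opposite strand, by 2381 bases. Strandedness of the counting is not given in the sources used here, so how reads of shared bases were counted is not known. SBF1 had a log2 fold change of 0.03 (adjusted p = 0.561 in edgeR's quasi-likelihood test). Whether shared reads entered the ADM2 counts was not tested.

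GDF15, a distant member of the transforming growth factor beta family whose level in blood is used as a marker of cell stress, was measured at 2.91, 2.85 and 3.70 FPKM in the control samples and at 13.06, 13.14 and 14.59 FPKM in the PB samples. Replicate 3 was the highest of its group in both groups, and the groups did not overlap. The mean rose from 3.15 ± 0.474 to 13.6 ± 0.861 FPKM (SD, n = 3). The fitted change was 3.88-fold (95% interval 3.44 to 4.38), a log2 fold change of 1.96 (SE 0.09, adjusted p = 4.188e-107 in edgeR's quasi-likelihood test), exceeded by 2.69% of the tested genes. The microRNA gene MIR3189 lies inside GDF15 and had between 2 and 5 counts in every sample.

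The stanniocalcins, named after a hormone of bony fish that lowers blood calcium, were the most abundant of these transcripts and did not rise to the same degree. STC2 was at 6.42, 6.75 and 6.46 FPKM in the control samples and at 24.97, 24.36 and 24.4 FPKM with PB. Its mean rose from 6.54 ± 0.180 to 24.6 ± 0.341 FPKM (SD, n = 3), the largest gain in FPKM of the 6 genes (18.0). This was a 3.43-fold change (95% interval 3.23 to 3.64) with a log2 fold change of 1.78 (SE 0.04), a log10 adjusted p of -363.2 in edgeR's quasi-likelihood test, and 3.53% of tested genes above it. STC1 was at 12.84, 12.5 and 11.43 FPKM in the control samples and at 21.84, 21.49 and 20.85 FPKM with PB, again without overlap. Its mean was 12.3 ± 0.736 FPKM in control samples and 21.4 ± 0.502 FPKM in PB samples (SD, n = 3), a gain of 9.14 FPKM. The fitted change was 1.60-fold (95% interval 1.51 to 1.69), with a log2 fold change of 0.68 (SE 0.04, adjusted p = 9.754e-56 in edgeR's quasi-likelihood test). STC1 thus passed the significance line and not the fold line. Without a fold line 24.1% of tested genes were higher with PB, and 17.9% had a log2 fold change above that of STC1.

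INHBE, whose activin E product is made mainly by the liver, was barely detected. It had 2, 7 and 2 counts in the control samples and 5, 6 and 12 counts with PB, and 2 of the 3 control samples were at or under the floor. The levels, 0.04, 0.13 and 0.03 FPKM against 0.10, 0.13 and 0.21 FPKM, overlapped between the groups. Its mean over the 6 samples, 0.107 FPKM, was just above the filter of 0.1 FPKM. The log2 fold change of 1.02 (SE 0.61, 95% interval -0.18 to 2.23) did not pass edgeR's quasi-likelihood test (adjusted p = 0.163), and it ranged from 0.61 to 1.91 when single samples were left out. Without control replicate 2, the control sample with 7 counts, INHBE was called higher (log2 fold change 1.91, adjusted p = 0.0400 in edgeR's quasi-likelihood test). An unnamed gene on the opposite strand (ENSG00000287200) overlaps INHBE by 1685 bases and was counted more often than INHBE, with 14, 15 and 13 counts in the control group and 24, 22 and 34 with PB (log2 fold change 0.92, adjusted p = 0.00694 in edgeR's quasi-likelihood test). This overlap too is of whole gene spans, and reads of shared bases cannot be told apart without strand.

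FGF21, a liver hormone that acts on fat tissue and brain during fasting and protein restriction, had 0, 0 and 0 counts in the control samples and 0, 0 and 1 with PB. Both groups were under the floor, so FGF21 was not tested and no fold change is given. At these depths a count of 0 allows up to 0.136 to 0.184 CPM in the control samples, and the change was not detectable at this depth.

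On the FPKM values, the exact permutation test (two-sided) gave p = 0.1 for GDF15, STC1, STC2 and ADM2, the smallest value that 3 samples against 3 allow, so that this test cannot reach 0.05. The same exact permutation test gave p = 0.3 for INHBE and p = 1 for FGF21.

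RefSeq promoter windows, from 250 bases before to 50 bases after the annotated start (GRCh38.p14), were found for 4 of the 6 genes: ADM2, FGF21, GDF15 and STC2. They were searched on both strands for the letters of 4 elements: the C/EBP-ATF response element core TGATGCAA, the unfolded protein response element TGACGTGG, the cyclic AMP response element TGACGTCA, and the hypoxia response element core ACGTG, which lies within TGACGTGG. The stretches just before the start are shown for the gene with the largest response and for the gene with the only match, with the match in capitals, 5′ to 3′ on the plus strand. The stretch of ADM2 (chr22:50481293-50481542) lies within the gene span of SBF1 on the opposite strand, and that of FGF21 is chr19:48755424-48755523.
ADM2: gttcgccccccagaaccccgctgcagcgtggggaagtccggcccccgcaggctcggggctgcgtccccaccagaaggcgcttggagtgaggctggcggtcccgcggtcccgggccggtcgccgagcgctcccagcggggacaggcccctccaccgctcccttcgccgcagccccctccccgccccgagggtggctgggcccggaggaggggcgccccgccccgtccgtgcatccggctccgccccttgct
FGF21: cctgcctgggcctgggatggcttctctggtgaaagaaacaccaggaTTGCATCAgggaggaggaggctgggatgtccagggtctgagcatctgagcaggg

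The match in FGF21, TTGCATCA, is the reverse complement of the C/EBP-ATF core and begins 54 bases before the start (position -54). The C/EBP-ATF core occurred in 0.866% of the 35116 promoter windows. Among these 4 windows it was in that of FGF21, which had 1 count in all 6 samples together, while the windows of ADM2, GDF15 and STC2 held none of the 4 elements. Freeing the sixth base of the core (TGATGNAA, which contains the exact core) added no further match among them and raised the share of all windows to 3.62%. The other elements occurred in 0.729% (TGACGTGG), 1.85% (TGACGTCA) and 21.4% (ACGTG) of windows. The absence of a match says only that these letters are not in the window. The STC2 window (chr5:173328365-173328664) lies inside the span of the principal GENCODE transcript of STC2. That transcript begins at 173329503 on the minus strand, and the bases before this start were not searched. The ADM2 window was the richest in G and C, at 76.7% of its bases, against 64.0% for STC2, 60.0% for FGF21, 59.3% for GDF15 and a median of 58.7% over all windows.

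The order of the levels changed at its top. In the control group the order was STC1, STC2, GDF15, ADM2, INHBE and FGF21, and with PB STC2 stood above STC1 with the rest in the same order. In neither group did the range of a gene overlap that of its neighbour in the order. The last step, from INHBE to FGF21, rests on counts near or under the floor and is not resolved at this depth. The ratio of STC2 to STC1 in FPKM was 0.500, 0.540 and 0.565 in the control samples and 1.14, 1.13 and 1.17 in the PB samples. It rose from 0.535 ± 0.0329 to 1.15 ± 0.0190 (SD, n = 3, two-sided, exact permutation p = 0.1, the lowest this design allows). The more abundant stanniocalcin transcript was thus STC1 in every control sample and STC2 in every PB sample. The summed level of all 6 genes was 22.68, 22.86 and 22.25 FPKM in the control group and 65.9, 65.11 and 66.11 FPKM with PB. Of this sum STC1 held 54.2% ± 2.65 in the control group and 32.6% ± 0.889 with PB (SD, n = 3). STC2 held 28.96% ± 0.614 and 37.4% ± 0.491, GDF15 held 13.98% ± 2.31 and 20.7% ± 1.21, and ADM2 held 2.55% ± 0.418 and 9.10% ± 0.101 (SD, n = 3).

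**Figure D2:**
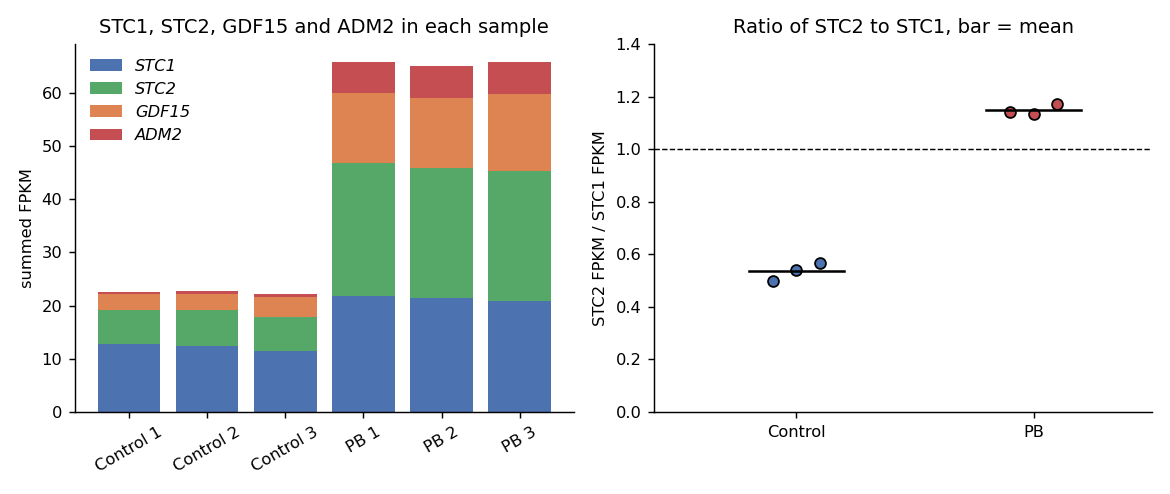
Left, FPKM of STC1, STC2, GDF15 and ADM2 stacked for each of the 6 samples (y axis, linear from 0). Right, the ratio of STC2 to STC1 in FPKM in each sample (points) with the group mean (bar), and a dashed line where both are equal. The stack is near 22 in the control samples and near 65 with PB, and the ratio crosses 1 between the groups.

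The 4 counted hormones were compared with each other as log2 ratios of FPKM, in 6 pairs. The ratio of ADM2 to STC1 gained 2.58 with PB, that of ADM2 to STC2 gained 1.48 and that of ADM2 to GDF15 gained 1.27. The ratio of GDF15 to STC1 gained 1.31 and that of STC2 to STC1 gained 1.10. In each of these 5 pairs the groups did not overlap (exact permutation p = 0.1, adjusted p = 0.12 over the 6 pairs). GDF15 and STC2 were the pair closest to a common response: their log2 ratio was -1.14, -1.24 and -0.80 in the control samples and -0.94, -0.89 and -0.74 with PB, which overlapped, with a difference of 0.21 (exact permutation p = 0.3, adjusted p = 0.3).

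The pattern over the 6 samples of each hormone that passed the filter, which leaves out FGF21, was also compared with the other named genes of at least 1 FPKM on average (12456 for INHBE and 12455 for the rest), as the Euclidean distance between log2 CPM values centred on each gene's mean. Closest to ADM2 were MMP1, an interstitial collagenase (distance 0.228), the lysosomal membrane protein gene LAMP3 (0.404) and TRIB3 (0.557), the gene of the pseudokinase that PB was screened against. Closest to GDF15 were KDM7A (0.204), a histone demethylase, CHGB (0.252), a protein of secretory granules, and SQSTM1 (0.310), an autophagy receptor. STC2 was closest to TLCD2 (0.0917), TNC (0.0951), which encodes the matrix protein tenascin C, and CFAP70 (0.0958). STC1 was closest to LIMD2 (0.0439), ZNF222 (0.0510) and the pseudogene ZNF252P (0.0730). For INHBE, with its few counts, the nearest were RNA5SP217 (0.268), RNA5SP462 (0.669) and CYCSP24 (0.674), all pseudogenes. With 2 groups of 3 samples, a small distance mostly says that a gene had a fold change of like size.

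Receptors for these hormones were mostly low or not counted. This list and those below were chosen with earlier results of these data known. Their counts stand beside 5.36% higher and 6.73% lower DEGs among all tested genes. Of 15 receptor genes 8 passed the filter, 0 were higher DEGs and 2 were lower DEGs, with a median log2 fold change of -0.0066 beside 0.0106 for all tested genes, a median whose sign changed with the scaling and with single samples. GFRAL, the receptor of GDF15, and RAMP3, a partner of the receptor of ADM2, had 0 counts in every sample, and RET, the co-receptor of GFRAL, had 3, 0 and 2 counts in the control group and 0, 0 and 0 with PB. KLB, the co-receptor that FGF21 needs, was near the filter at 0.107 ± 0.0208 FPKM in control samples and 0.0467 ± 0.00577 FPKM in PB samples (SD, n = 3) and was not tested. CALCRL, the receptor subunit for ADM2, was at 0.14, 0.12 and 0.09 FPKM in the control samples and 0.20, 0.32 and 0.23 FPKM with PB. Its log2 fold change of 0.99 (SE 0.29, adjusted p = 0.00164 in edgeR's quasi-likelihood test) passed the significance line and lay just under the fold line. Among the FGF receptors, FGFR4 fell from 1.56 ± 0.172 to 0.750 ± 0.0755 FPKM (SD, n = 3, log2 fold change -1.21), and FGFR3 was the other lower DEG (log2 fold change -1.12). FGFR1, the usual partner of KLB, had a log2 fold change of -0.21, from 6.05 ± 0.252 to 5.73 ± 0.170 FPKM (SD, n = 3). The activin receptors ACVR1B, ACVR2A and ACVR2B had log2 fold changes of 0.30, 0.20 and 0.34, and ACVR1C one of -0.31.

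Among 9 genes that process or bind these hormones or their relatives, 8 were tested, of which 1 was a higher DEG and 2 were lower DEGs (median log2 fold change -0.49). The pappalysins, proteases that the stanniocalcins inhibit and that free insulin-like growth factors, moved in opposite directions. PAPPA had 228, 310 and 308 counts in the control samples and 47, 52 and 32 with PB, a fall from 1.33 ± 0.202 to 0.233 ± 0.0737 FPKM (SD, n = 3). PAPPA2 had 2, 3 and 7 counts in the control samples and 95, 74 and 72 with PB, a rise from 0.0200 ± 0.0100 to 0.443 ± 0.101 FPKM (SD, n = 3). On the log2 scale the changes were -2.69 (SE 0.13, adjusted p = 1.840e-94) and 4.30 (SE 0.30, adjusted p = 1.389e-44) in edgeR's quasi-likelihood test. The size of the PAPPA2 change rests on control counts near the floor. Neither gene reached 1 FPKM on average over the samples, and both were named after their values were seen, as were the genes under 1 FPKM in the receptor and family lists. PCSK6, a proprotein convertase with a mean of 0.173 FPKM in control samples and 0.0667 FPKM in PB samples, was the other lower DEG. FURIN, a proprotein convertase that can cleave GDF15 and other precursors, was at 9.51 ± 0.168 FPKM in control samples and 10.4 ± 0.178 FPKM in PB samples (SD, n = 3), with a log2 fold change of 0.0031.

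Of 10 close relatives of the hormones 3 passed the filter, with 2 lower DEGs, 0 higher DEGs and a median log2 fold change of -2.43, also with INHBB at its bound. This median rested on few genes and was 0.48 without the expression filter. ADM, which encodes adrenomedullin, the nearest well-known relative of ADM2, was at 5.91, 4.47 and 4.91 FPKM in the control samples and at 0.97, 1.21 and 0.93 FPKM with PB. It fell from 5.10 ± 0.738 to 1.04 ± 0.151 FPKM (SD, n = 3), which is -2.43 on the log2 scale (SE 0.14, adjusted p = 1.007e-65 in edgeR's quasi-likelihood test). Of this pair, ADM was the more abundant transcript in every control sample and ADM2 in every PB sample. INHBB, which encodes the beta B subunit of activins, had 85, 77 and 99 counts in the control samples and 0, 0 and 1 with PB, at least 26.4-fold lower against a floor of 3 counts per library. INHBB is among the 113 genes that were well counted in the control libraries and at the floor in the PB libraries. INHBC, a neighbour of INHBE in the genome, was at 0.143 ± 0.0153 FPKM in control samples and 0.320 ± 0.0819 FPKM in PB samples (SD, n = 3) and passed the significance line but not the fold line (log2 fold change 0.97, adjusted p = 0.0283 in edgeR's quasi-likelihood test).

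**Figure D3:**
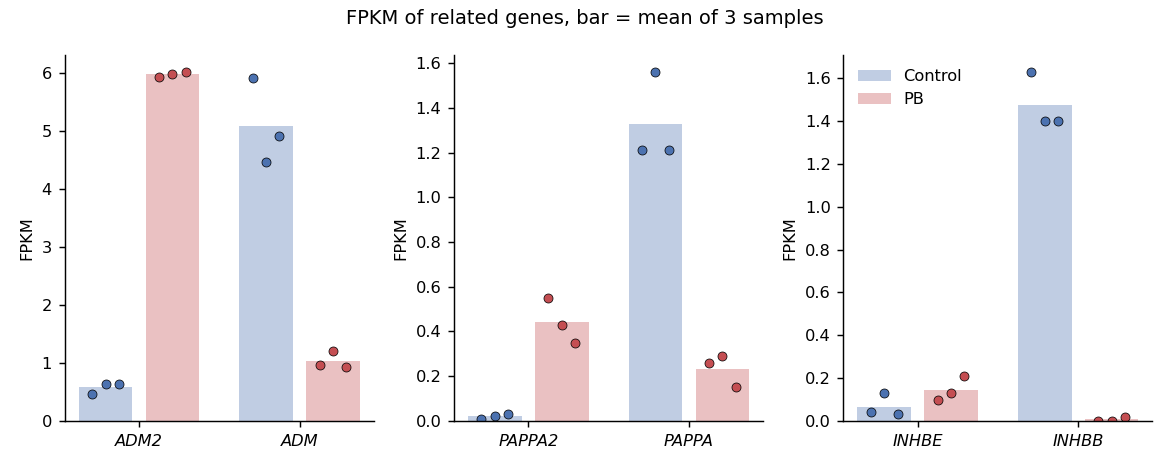
FPKM (y axis, linear, own scale in each panel) of ADM2 and ADM, of PAPPA2 and PAPPA, and of INHBE and INHBB in the control group (blue) and with PB (red). Points are the 3 samples and bars their mean. ADM, PAPPA and INHBB are lower with PB, ADM2 and PAPPA2 are higher, and INHBE overlaps between the groups.

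The regulators known to drive these genes were counted in every sample, but NUPR1 only near the floor in the control group. Of 15 regulators, all tested, 7 were higher DEGs and 2 were lower DEGs, against 5.36% and 6.73% of all tested genes. Their median log2 fold change was 0.84. ATF4, the central factor of the integrated stress response, rose from 58.9 ± 2.00 to 153.1 ± 2.79 FPKM (SD, n = 3, log2 fold change 1.25). DDIT3, the stress-induced partner of the C/EBP factors, had a log2 fold change of 4.05, and EGR1, an immediate early factor, rose from 2.67 ± 0.0866 to 12.8 ± 0.126 FPKM (SD, n = 3, log2 fold change 2.13). ATF3, which ATF4 turns on, rose from 1.08 ± 0.123 to 5.06 ± 0.287 FPKM (SD, n = 3, log2 fold change 2.09). CEBPB, CEBPG and NUPR1 were the other higher DEGs, with log2 fold changes of 1.67, 1.38 and 4.75. NUPR1 had 5, 1 and 4 counts in the control samples and 93, 83 and 102 with PB. The size of its change therefore rests on control counts near the floor. The lower DEGs were EPAS1 (HIF-2 alpha), which fell from 4.34 ± 0.240 to 1.06 ± 0.0666 FPKM (SD, n = 3, log2 fold change -2.16), and ATF5, which fell from 6.42 ± 0.246 to 3.34 ± 0.227 FPKM (SD, n = 3, log2 fold change -1.08). PPARA, which drives FGF21 in liver, had a log2 fold change of 0.79.

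The intracellular targets of ATF4 were set beside the secreted ones. All 22 were tested and had a positive log2 fold change, as did 12391 of the 24200 tested genes. Of the 22, 16 were higher DEGs and 0 were lower DEGs, against 5.36% and 6.73% of all tested genes. The median was 1.52. Because the list was chosen with earlier results of these data known, its common direction is not independent support. The largest changes were in CHAC1, which degrades glutathione, ASNS, which makes asparagine, and TRIB3, with log2 fold changes of 4.13, 3.61 and 3.53. These are RNA levels. By Western blot the paper reported no significant effect of PB on TRIB3 protein in this cell line. On the same scale ADM2, at 3.23, lay close under them, GDF15 (1.96) and STC2 (1.78) lay above the median of this list, and STC1 (0.68) lay below it.

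Other secreted proteins linked to stress showed both directions. Of 13 such genes 12 were tested, of which 2 were higher DEGs and 3 were lower DEGs, against 5.36% and 6.73% of all tested genes. Their median log2 fold change was -0.24. VEGFA, the angiogenic growth factor, was at 4.87, 2.46 and 2.69 FPKM in the control samples and at 10.71, 24.24 and 26.02 FPKM with PB, so the groups did not overlap but the PB samples were far from alike (log2 fold change 2.50). The SE of 0.03 for VEGFA does not carry this spread. The other higher DEG was CDNF, a neurotrophic factor of the endoplasmic reticulum, at 0.470 ± 0.0794 FPKM in control samples and 1.51 ± 0.291 FPKM in PB samples (SD, n = 3). The lower DEGs were the chemokine genes CXCL8, from 12.5 ± 0.323 to 0.253 ± 0.0289 FPKM, and CCL2, from 2.27 ± 0.264 to 0.0600 ± 0.0265 FPKM, and the growth factor gene AREG, from 3.20 ± 0.182 to 0.490 ± 0.217 FPKM (SD, n = 3). MANF and CRELD2, secreted proteins of endoplasmic reticulum stress, had log2 fold changes of -0.75 and -0.42. The hypoxia-inducible factors can also turn on STC1, STC2 and ADM. Of 12 listed targets of these factors, 0 were higher and 4 were lower DEGs, against 5.36% and 6.73% of all tested genes. The median log2 fold change was -0.84, and 1 of the 12 had a positive value. This list is not complete, as VEGFA (2.50) and ANGPTL4 (log2 fold change -0.05) were placed among the secreted factors above. Among the listed targets of at least 1 FPKM the largest fall was of LDHA, from 164.2 ± 3.47 to 52.7 ± 4.48 FPKM (SD, n = 3, log2 fold change -1.78). CA9, NDRG1 and EGLN3, each under 1 FPKM on average over the 6 samples, were the other lower ones.

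**Figure D4:**
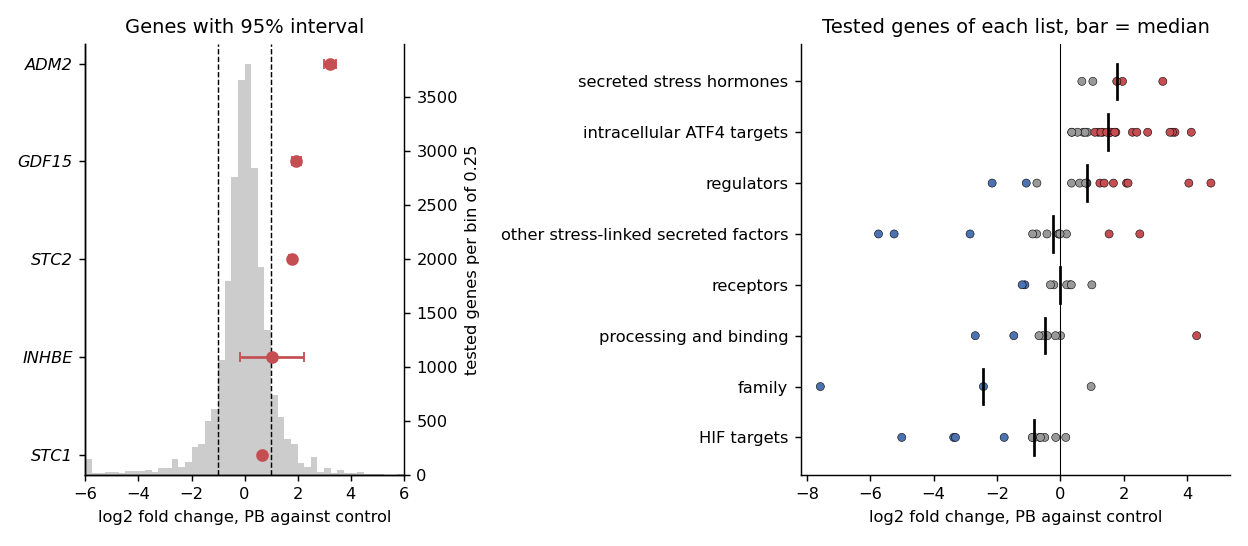
Left, log2 fold change of PB against control for the 5 tested hormones (points, with 95% intervals) over the distribution of all 24200 tested genes (grey, right axis, genes per bin of 0.25, with values beyond the axis in the end bins), and dashed lines at the fold line of 1 in either direction. Right, each tested gene of the hormones and of 7 other lists (red higher DEG, blue lower DEG, grey not called), with the list median as a bar. ADM2, GDF15 and STC2 lie right of the fold line, STC1 lies short of it, and the interval of INHBE spans 0.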

How the data were processed

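RNA-seq of poly(A) RNA (2x150 paired-end) from 3 control and 3 PB-treated MDA-MB-231 samples was analysed, with groups from the sample titles, dose and time from the study's methods and results, and 0 unmatched columns. The authors deposited raw counts and FPKM values per gene. Every FPKM value (100%) lay within 0.006 of the value recomputed from the count, the exonic length and the total. The submitters' processing notes name HTSeq 0.6.1, Cufflinks 2.2.1, DESeq2 and hg38, and the aligner and strandedness are not given in the sources used here.

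Genes whose FPKM averaged 0.1 or more (24200 of 61806, 20417 of the 61806 without a symbol) were tested on the raw counts with edgeR 4.0.16 in R 4.3.3: TMM normalization, quasi-likelihood test, Benjamini-Hochberg adjustment. Standard errors were derived from the log2 fold change and the F statistic. For each tested hormone they were smaller than those of DESeq2 (for ADM2 0.11 against 0.16). TMM factors were 0.949 to 0.962 for control and 1.04 to 1.05 for PB samples. On simulated data for this comparison with 24200 genes, of which 200 were changed, edgeR recovered 200 and called 2 unchanged genes. The changes were set only in well-counted genes, all past the fold line and equally up and down, with the fitted dispersions taken as true. This is an easy case with far fewer changed genes than the 2925 DEGs here. It checks that the code runs and says nothing about genes near the floor. Alternatives were DESeq2 1.42.0, limma 3.58.1 on log2(FPKM + 0.1) and log2(FPKM + 1), other filters and fold lines, library size alone, the replicate number as a block, and each sample left out.

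The genes and lists were chosen with earlier results of these data known. In each list, up to 3 higher and 3 lower DEGs with the largest changes and a mean of at least 1 FPKM were named, with ATF4 and DDIT3. The nearest genes were the 3 of smallest distance (prior count 2). The other list genes were named after their values were seen, and so was the motif with a free base added. Promoters are from RefSeq (GRCh38.p14) and exon counts from GENCODE v29. Columns of annotation in the table were not used beyond symbols and coordinates. A further gene list is not reported here.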

Additional observations from a re-analysis of the deposited data

How the results depend on the processing

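GDF15, STC1, STC2 and ADM2 kept their direction and an adjusted p of at most 0.05 under all 14 alternatives fitted for each, with log2 fold changes of 1.82 to 2.11, 0.62 to 0.81, 1.76 to 1.91 and 2.15 to 3.36. When single samples were left out these were 1.88 to 2.11, 0.62 to 0.71, 1.77 to 1.79 and 3.13 to 3.31. The size of the adjusted p depended on the method: with the newer quasi-likelihood dispersions of edgeR, added after the data were seen, it was 1.906e-36 for ADM2, 1.501e-29 for GDF15, 1.459e-45 for STC2 and 3.440e-22 for STC1. The weakest values were from limma, at most 1.286e-05 for GDF15, 2.548e-05 for STC1, 1.669e-07 for STC2 and 2.797e-06 for ADM2. Without PB replicate 3 edgeR gave 7.961e-20, 2.667e-16, 3.457e-31 and 9.263e-25 in the same order. Of 16 alternatives for the number of hormones called, a fold line of 2 on the log2 scale gave 1 in place of 3, and leaving out single samples gave 3 to 4. INHBE was called only without control replicate 2 (1.91, log10 adjusted p -1.398). Its log2 fold change was 0.61 to 1.91 when single samples were left out and 0.10 to 1.91 over all 13 alternatives that gave a value, the lowest by limma on log2(FPKM + 1), and it had no value under a filter of 1 FPKM. FGF21 was fitted only without the expression filter, where it was not called (adjusted p = 0.535), and no fold change is given because both groups were under the floor. The number of DEGs, 2925, became 1377 under a filter of 1 FPKM on average, 825 by limma on log2(FPKM + 1), 12151 with no fold line, 886 with a fold line of 2 (log2), and 2784 to 2849 when single samples were left out. Scaling by library size alone moved the median over all tested genes from 0.0106 to 0.14 (log2), and that of the receptors to 0.13. The receptor median was also above 0 under a filter of 1 FPKM (0.025), and lay between -0.053 and 0.039 when single samples were left out (0.021 without control replicate 1, 0.039 without PB replicate 3). The family median was 0.48 without the expression filter, where more genes were tested. The ratio of STC2 to STC1 differed by 0.614 between groups in FPKM and by 0.752 in counts, which carry the gene lengths. Replicate numbers are shared between groups, but same-numbered samples did not deviate together (correlations of -0.029, 0.043 and -0.029 over 13533 genes). With the replicate number as a block 2753 DEGs were counted, the number of hormones called stayed at 3, no call on a hormone changed, and not every sample correlated best with its own number. Depth limits INHBE and FGF21, whose counts are at or near the floor of 3.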
